A study of Mus musculus with 12 samples.

Results

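Tenascins and matricellular proteins are secreted proteins of the pericellular matrix, and 9 of the 25511 genes in the deposited gene table make up the group described here: Tnn, Tnc, Tnxb, Postn, Thbs1, Thbs2, Fn1, Vcan and Eln. They were chosen by name, with earlier results of these data in view, and 8 of the 9 had fragments in the table and passed the filter on low counts. RNA was sequenced from calvarial osteoblast cultures, made by digesting the skull bones of neonatal C57Bl/6J mice, and the labels give either the wild-type (WT) genotype or F2rl1 -/- (KO). F2rl1 encodes protease-activated receptor-2 (PAR2), a receptor switched on by proteolytic cleavage, and both genotypes were used to ask how the receptor affects the answer of bone-forming cells to factors from prostate cancer cells. After 48 h in culture, cells of each genotype were given unconditioned BRFF-HPC1 medium with 20% serum or medium in which a human prostate cancer line, MDA-PCa-2b, had been kept for 48 h, and RNA was taken 4 days later. The 4 groups are thus WT unconditioned, WT conditioned, KO unconditioned and KO conditioned, with 3 deposited libraries each.

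Matricellular proteins are secreted into the matrix but act mainly by binding cell receptors, growth factors and proteases rather than by building fibres. Tenascins, thrombospondins and periostin belong to this class, while fibronectin, versican and elastin are structural partners that they bind or lie beside. In bone and its covering layers these genes are active in periosteal cells, osteoblast precursors and healing tissue, and several respond to mechanical load and to TGF-beta.

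Library totals ran from 15023994 to 16956754 fragments. Unconditioned WT libraries 0 and 1 differed by less than the sampling noise, and 91.8% of 17538 genes had the same estimated fragment count in both. These libraries were counted as 1 sample, so that group has 2 distinct libraries and the comparisons rest on 11. F2rl1 had 14 to 25 fragments in libraries labelled WT and 12 to 46 in those labelled KO; a count over the whole gene does not separate a deleted part from the rest, so it does not check the labels, and WT and KO below mean libraries labelled so. In addition, 1 sample titled WT in unconditioned medium carries the KO genotype in a second label, and samples were grouped by title. The labels do not say whether libraries of a group came from separate cultures or animals, so p-values measure only the spread between libraries, which may be technical. On the first principal component, conditioned KO libraries 1 and 2 lay at 67.7 and 82.5, whereas conditioned KO library 0 lay at -5.32, among the conditioned WT libraries (-10.6 to 28.1). Results that rest on library 0 are given with and without it. Of the osteoblast markers, Col1a1 (100542 to 328342 fragments), Col1a2 (78341 to 311962), Sparc (90574 to 152037), Spp1 (29518 to 177955) and Runx2 (1195 to 1411) were present in every library. Alpl (178 to 1568) and Sp7 (32 to 604) also had fragments in each, but the mature osteoblast markers Ibsp (3 to 16) and Bglap (0 to 13) were at or near 0.

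Levels can be compared between genes only per transcript length, as FPKM (fragments per kilobase of transcript, scaled to library size). By median FPKM over the 11 libraries the order was Thbs1 (427, range 162 to 743), Vcan (316, 262 to 411), Thbs2 (278, 178 to 549), Postn (194, 50.1 to 385), Tnc (107, 53.0 to 268), Tnn (10.5, 0.229 to 93.8), Eln (5.69, 2.07 to 12.5) and Tnxb (1.20, 0.171 to 5.34). Each neighbour in this order overlaps the next in its range. By mean FPKM, Thbs1 ranked 82 among 23797 named genes, Vcan 113 and Tnxb 11064. The 8 genes together held 0.737% to 1.23% of all fragments in a library. Levels of 1 gene were compared across libraries as counts scaled to library size (CPM), and the ratio of the highest to the lowest library ran from 1.70 for Vcan to 46.6 for Tnxb and 432 for Tnn. Fn1, the gene of fibronectin, is listed at 0 in every library with a status saying that it exceeded the depth limit of the authors' counting program. It therefore has no value here, and its 0 is not a low level.

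**Figure D1:**
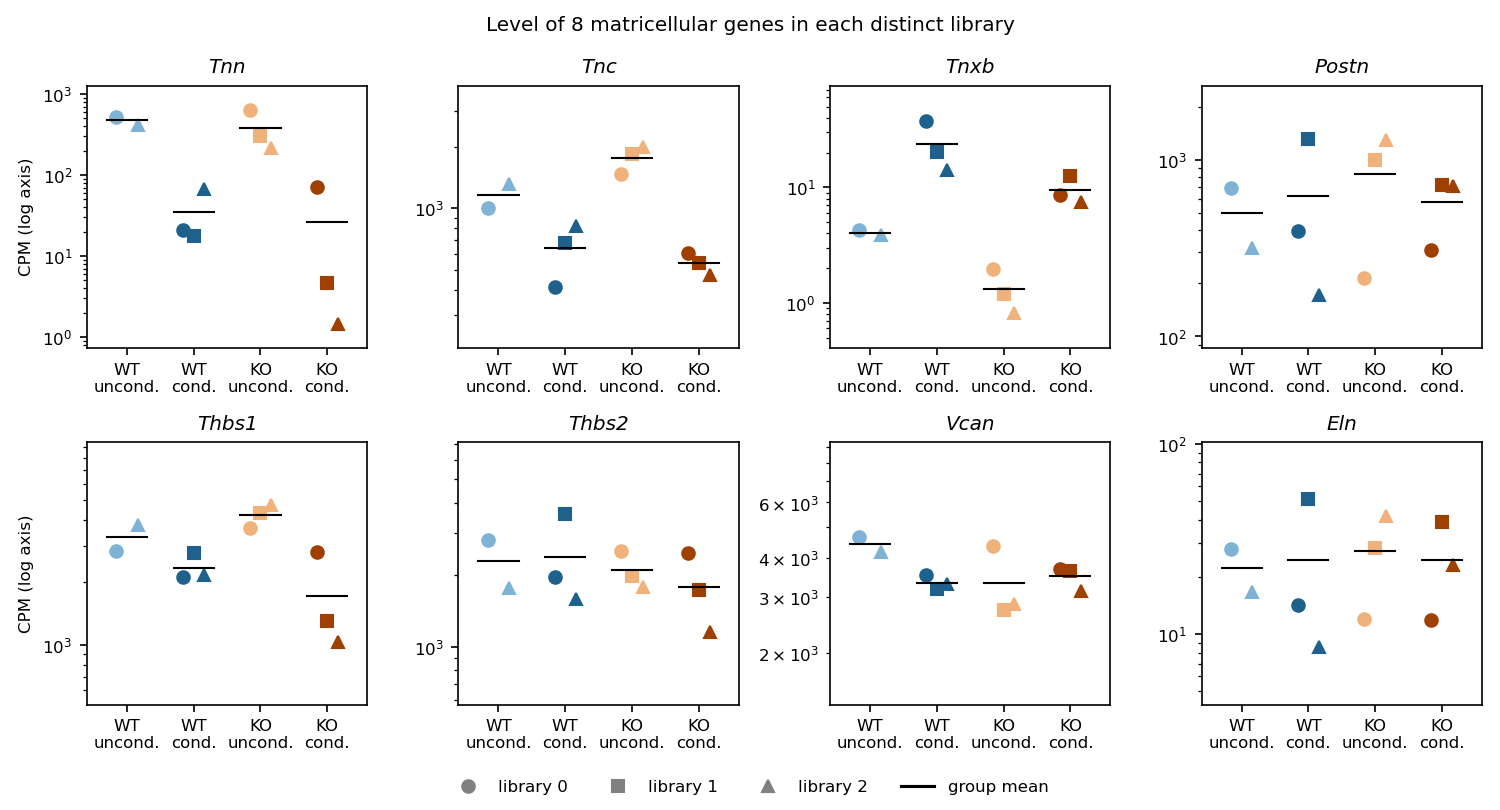
Level of each of the 8 genes in CPM (log axis) in the 11 distinct libraries, by genotype and medium; the marker shape is the library number and the line the group mean. Tnn, Tnc and Thbs1 are lower and Tnxb higher in every conditioned library than in every unconditioned library, and conditioned KO library 0 sits above the other 2 conditioned KO libraries for Tnn and Thbs1.

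Conditioned medium went with less Tnn, Tnc and Thbs1 RNA and more Tnxb RNA, while Postn, Thbs2, Vcan and Eln did not pass the test in either genotype. In edgeR's quasi-likelihood test with Benjamini-Hochberg adjustment over 13603 genes, the effect averaged over genotypes passed an adjusted p of 0.05 for 4 of 8 genes, 3 lower and 1 higher, against 20.5% of all genes tested (10.1% lower and 10.4% higher). Within WT 1 of 8 passed, against 1.78% of all genes (0.551% lower and 1.23% higher), and within KO 4 of 8 did, against 18.3% of all genes (8.58% lower and 9.68% higher). The same 4 genes were those whose 6 conditioned and 5 unconditioned libraries did not overlap, which held for 16.4% of all genes (8.45% lower and 7.98% higher in conditioned medium). In bulk RNA, fewer cells of a type and less RNA per cell cannot be told apart. Because these genes were named with earlier results known, the counts describe them and are not independent evidence.

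Tnn, or tenascin-W, is a tenascin of periosteum, developing bone and tumour stroma. Its level was 523 and 420 CPM in unconditioned WT libraries and 21.2, 17.8 and 66.6 CPM in conditioned WT libraries. In KO it was 628, 301 and 216 CPM without conditioning and 71.9, 4.63 and 1.46 CPM with it. Every conditioned library was below every unconditioned one in both genotypes, and conditioned KO library 0 was more than 10 times as high as the other 2 of its group. The log2 change was -3.74 in WT (SE 1.24, adjusted p = 0.168) and -3.88 in KO (SE 1.20, adjusted p = 0.0497) by edgeR's quasi-likelihood test. Averaged over genotypes it was -3.81 (SE 0.86, adjusted p = 0.0139), a 14.04-fold fall that passed in all 20 alternative settings (highest adjusted p = 0.0449). The KO value lay at the threshold: it was lost when any 1 library other than conditioned KO library 0 was left out (highest adjusted p = 0.149), with no filter on low counts (adjusted p = 0.0689) and with DESeq2 size factors (adjusted p = 0.05001). Without conditioned KO library 0 the change was -6.98 (adjusted p = 0.000621) in KO and -3.75 (adjusted p = 0.0169) in WT, both past the threshold, as were 44.9% of all genes in KO. The WT estimate hardly moved, and its SE fell from 1.24 to 0.67 although no WT library was left out. The 4 groups share 1 estimate of the spread, and 916 of 13575 genes then passed in WT, against 242 of 13603 before. With replicate numbers as a block the KO change was -5.27 (adjusted p = 0.0255).

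Smooth muscle markers (Acta2, Tagln, Myh11, Cnn1 and Des, 5 of 5 in the table) had a sum that, like Tnn, was lower in every conditioned library. Their summed level was 1686 to 1701 CPM in unconditioned WT, 1508 to 2159 CPM in unconditioned KO and 697, 1345 and 1270 CPM in conditioned WT libraries 0, 1 and 2, an order that Tnn did not follow. Conditioned KO library 0 had 1415 CPM, against 321 and 224 CPM in libraries 1 and 2. No marker of this list was at 0, although Myh11, its most specific member, had only 4 to 57 fragments. The sum was mostly Acta2 (150 to 1400 CPM) and Tagln (64.5 to 715 CPM). Cnn1 had 1.19 to 36.4 CPM and Des 1.74 to 39.0 CPM, and the markers were not compared singly between media. Cartilage markers (5 of 5) summed to 1866 to 2727 CPM in unconditioned KO libraries and to 1810, 864 and 780 CPM in conditioned KO libraries 0, 1 and 2, and overlapped between media in WT (1749 to 2819 and 1772 to 2230 CPM). Osteoblast markers (9 of 9) summed to 36640 to 58040 CPM in unconditioned and 24460 to 33430 CPM in conditioned KO libraries, and also overlapped in WT (37230 to 42720 and 26890 to 41480 CPM). The part of these cells or genes in the Tnn result was not tested.

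Tnc encodes tenascin-C, a hexameric glycoprotein of developing and injured connective tissue that weakens cell adhesion to fibronectin. It had 998 and 1312 CPM in unconditioned WT, 413, 677 and 821 CPM in conditioned WT, 1479, 1836 and 1984 CPM in unconditioned KO and 605, 542 and 472 CPM in conditioned KO libraries. The media did not overlap in either genotype, and the 3 unconditioned KO libraries were the highest of all. The log2 change was -1.71 in KO (SE 0.25, adjusted p = 0.00581), past the threshold in all 20 alternatives. In WT it was -0.86 (SE 0.27, adjusted p = 0.151), which did not pass in edgeR but did in DESeq2 (adjusted p = 0.0389). Averaged over genotypes, Tnc fell by 1.28 on the log2 scale (SE 0.18, adjusted p = 0.00184 in edgeR's quasi-likelihood test), again in all 20 alternatives. The averaged changes of the genes that did not pass were -0.11 for Postn (SE 0.58), -0.09 for Thbs2 (SE 0.27), -0.17 for Vcan (SE 0.15) and -0.01 for Eln (SE 0.51).

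Tnxb encodes tenascin-X, a tenascin bound to collagen fibrils whose loss causes a form of Ehlers-Danlos syndrome. It was the member with the fewest fragments: 65 and 55 in unconditioned WT, 586, 298 and 212 in conditioned WT, 29, 17 and 12 in unconditioned KO and 137, 208 and 139 in conditioned KO libraries. These counts correspond to 3.85 to 4.27, 14.03 to 37.7, 0.809 to 1.96 and 7.49 to 12.7 CPM, and no 2 of the 4 groups overlapped. The log2 change with conditioned medium was 2.56 in WT (SE 0.47, adjusted p = 0.0320) and 2.84 in KO (SE 0.44, adjusted p = 0.00669) by edgeR's quasi-likelihood test. Averaged over genotypes it was 2.70 (SE 0.32, adjusted p = 0.00105), a 6.50-fold rise. The KO and averaged values passed in all 20 alternatives. The WT value was lost under the replicate block (adjusted p = 0.0574) and without either unconditioned WT library, conditioned WT library 0 or 1, unconditioned KO library 1 or conditioned KO library 1 (highest adjusted p = 0.336).

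The Tnxb locus in the deposited table (chr17:34670535-34800248, plus strand, mm10) runs beyond the gene itself and takes in C4b, on the other strand, and the pseudogene Tnxa. The library kit does not mark strand, and reads of Tnxa can match Tnxb, so the Tnxb counts are uncertain to that extent. C4b, a complement gene, changed by 0.21 in WT (SE 0.41, adjusted p = 0.886) and 0.66 in KO (SE 0.37, adjusted p = 0.224) in edgeR's quasi-likelihood test. The 2 Tnxb transcripts, of 9569 and 2586 bases, were both higher with conditioned medium in every library: the longer had 6.76 to 54.1 estimated fragments without and 106 to 504 with it, and the shorter 2.87 to 10.9 without and 26.7 to 81.8 with it. Endothelial markers (5 of 5 in the table) also summed to more in conditioned libraries, 7.97 to 15.3 against 3.95 to 7.83 CPM. Of this list Pecam1 (1 to 7 fragments) and Emcn (0 to 2) were near 0 throughout, whereas Cdh5 (21 to 80), Kdr (7 to 128) and Tek (13 to 76) had fragments in every library. The part of endothelial cells in the Tnxb result was not tested.

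The sequences upstream of the 3 tenascins are shown because these genes moved with the medium, 2 down and 1 up. Each is the 250 bases before a RefSeq start site on the gene's own strand (GRCm38.p6), with matches to the motifs searched in capitals.
Tnn, chr1:160153576-160153825, minus strand: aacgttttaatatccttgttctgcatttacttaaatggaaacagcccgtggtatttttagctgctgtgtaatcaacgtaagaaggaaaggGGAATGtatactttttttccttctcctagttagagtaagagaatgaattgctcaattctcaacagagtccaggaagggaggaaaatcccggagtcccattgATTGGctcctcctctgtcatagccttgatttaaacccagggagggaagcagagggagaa
Tnc, chr4:64047016-64047265, minus strand: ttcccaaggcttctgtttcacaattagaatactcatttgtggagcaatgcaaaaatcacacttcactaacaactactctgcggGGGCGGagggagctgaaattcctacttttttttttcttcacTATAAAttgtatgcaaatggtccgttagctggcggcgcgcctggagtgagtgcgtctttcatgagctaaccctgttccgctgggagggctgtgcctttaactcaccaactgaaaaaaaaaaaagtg
Tnxb, chr17:34670285-34670534, plus strand: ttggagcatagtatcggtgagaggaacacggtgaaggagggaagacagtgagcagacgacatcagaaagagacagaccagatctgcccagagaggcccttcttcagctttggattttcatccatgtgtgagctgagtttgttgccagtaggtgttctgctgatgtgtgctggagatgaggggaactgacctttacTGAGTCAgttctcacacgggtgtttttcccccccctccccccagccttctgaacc
Both strands were searched for the TATA box as spelled TATAAA (in 12.4% of 32807 such windows), TGANTCA (AP-1 site, 6.75%), the GC box, GGGCGG (32.7%), GGAATG (TEAD site, 12.6%), CCAAT (33.8%) and the glucocorticoid response element (0.061%). The Tnn window holds a TEAD match and an inverted CCAAT match, the Tnc window a GC box and a TATA box match, and the Tnxb window 1 AP-1 match, found at the same place on both strands because the pattern as spelled is its own reverse complement. No motif searched was shared by the 3 windows. RefSeq windows were found for 6 of the 9 genes; Thbs1, Eln and Fn1 had none in the table.

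Thbs1 and Thbs2 encode thrombospondins 1 and 2, trimeric proteins that bind CD36 and CD47. Thrombospondin 1 also activates latent TGF-beta. Thbs1 had 2818 and 3766 CPM in unconditioned WT, 2112, 2781 and 2159 CPM in conditioned WT, 3651, 4321 and 4748 CPM in unconditioned KO and 2811, 1297 and 1026 CPM in conditioned KO libraries. The media did not overlap, but the margin in WT was narrow, and conditioned KO library 0 was more than 2 times as high as the other 2 of its group. The log2 change was -1.31 in KO (SE 0.35, adjusted p = 0.0313) and -0.49 in WT (SE 0.38, adjusted p = 0.627) by edgeR's quasi-likelihood test. The KO value was lost without unconditioned KO library 1 or 2 or conditioned KO library 1 or 2 (highest adjusted p = 0.123), and was -1.87 (adjusted p = 0.000316) without conditioned KO library 0. The averaged change of -0.90 (SE 0.25, adjusted p = 0.0335) was lost in 8 of 11 fits that left out 1 library, all but those without conditioned WT library 1 or either KO library numbered 0 (highest adjusted p = 0.130). It was also lost with the replicate block (log2 change -1.03, adjusted p = 0.0544).

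Thbs2 had 2805 and 1768 CPM in unconditioned WT, 1950, 3567 and 1592 CPM in conditioned WT, 2508, 1979 and 1777 CPM in unconditioned KO and 2458, 1734 and 1151 CPM in conditioned KO libraries. All 4 groups overlapped. Its log2 change was 0.05 in WT (SE 0.40, adjusted p = 0.972) and -0.23 in KO (SE 0.36, adjusted p = 0.672) by edgeR's quasi-likelihood test.

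Postn, the gene of periostin, a protein of periosteum that helps assemble collagen, and Eln, the gene of the elastic fibre core protein, varied more between libraries of a group than between groups. Postn had 691 and 316 CPM in unconditioned WT, 394, 1310 and 172 CPM in conditioned WT, 213, 1002 and 1292 CPM in unconditioned KO and 309, 724 and 709 CPM in conditioned KO libraries. Eln had 28.1 and 16.7, 14.2, 51.1 and 8.54, 12.03, 28.6 and 41.9, and 11.9, 38.8 and 23.2 CPM in the same libraries. Conditioned WT library 1 was the highest of all 11 libraries for both genes and conditioned WT library 2 the lowest. Both KO libraries numbered 0 were below the other 2 of their group for both genes. On the centred log2 CPM scale the 2 genes differed by a root mean square of 0.32 over 11 libraries, against a spread of 0.97 for Postn and 0.81 for Eln alone. This closeness is a description, since the libraries also share their cells and preparation.

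The medium effects on Postn were 0.31 in WT (SE 0.87, adjusted p = 0.925) and -0.53 in KO (SE 0.78, adjusted p = 0.652) by edgeR's quasi-likelihood test. Eln changed by 0.13 in WT (SE 0.76) and -0.16 in KO (SE 0.68), with adjusted p-values of 0.966 and 0.888. With replicate numbers as a block the WT estimates turned to -0.85 for Postn (SE 0.32, adjusted p = 0.246) and -0.98 for Eln (SE 0.31, adjusted p = 0.180). In KO they were then -0.27 (SE 0.27) and -0.14 (SE 0.25), so the standard errors were smaller, and neither gene passed. In WT this block gave conditioned library 1 no unconditioned partner, because unconditioned WT libraries 0 and 1 were counted as 1 sample. The fit without conditioned WT library 1 gave similar WT estimates, -0.83 for Postn and -0.98 for Eln. With the merged WT library numbered 1 in the block, they were 0.024 (SE 0.50) for Postn and -0.0026 (SE 0.45) for Eln.

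Tendon markers (4 of 4 in the table) summed to 385, 547 and 260 CPM in conditioned WT libraries 0, 1 and 2 and to 383, 594 and 663 CPM in unconditioned KO libraries, the same order within these 2 groups as Postn and Eln. In conditioned KO they were 395, 343 and 253 CPM, which is not that order, and in unconditioned WT 356 and 352 CPM. Skeletal muscle markers (8 of 8) had 159 CPM in conditioned WT library 1, against 20.5 and 25.3 CPM in the other 2 of its group, but were highest in unconditioned WT library 0, at 205 CPM, where Postn and Eln were below their levels in conditioned WT library 1. Of that list Ckm had 0 to 24 and Myod1 3 to 27 fragments, while Myh3 had 77 to 1437, Acta1 51 to 744 and Ttn 61 to 523. The part of tendon or muscle cells in these levels was not tested.

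**Figure D2:**
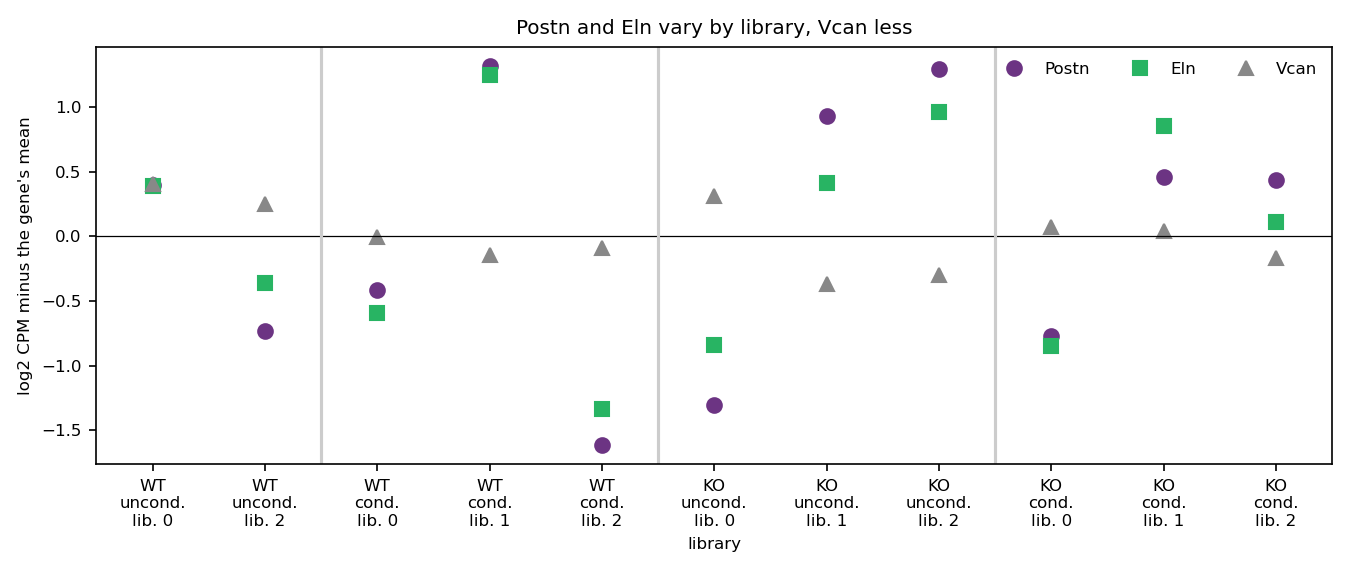
Level of Postn, Eln and Vcan in each library, as log2 CPM minus the gene's mean over the 11 libraries, with grey lines between the 4 groups. Postn and Eln are high or low in the same libraries, with conditioned WT library 1 highest and library 2 lowest, while Vcan keeps closer to its mean.

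Vcan encodes versican, a large chondroitin sulfate proteoglycan that binds hyaluronan and swells the matrix around dividing and moving cells. It was the steadiest of the 8 genes, with 4660 and 4183 CPM in unconditioned WT, 3519, 3183 and 3313 CPM in conditioned WT, 4373, 2738 and 2865 CPM in unconditioned KO and 3701, 3626 and 3146 CPM in conditioned KO libraries. The 2 media did not overlap in WT and overlapped in KO. Its log2 change was -0.41 in WT (SE 0.23, adjusted p = 0.455) and 0.07 in KO (SE 0.20, adjusted p = 0.826) by edgeR's quasi-likelihood test. Non-overlap within WT, which also holds for Tnn, Tnc, Tnxb and Thbs1, was found for 42.5% of all genes, and within KO for 31.2%.

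Versican transcripts differ in 2 exons that carry the chondroitin sulfate chains: V0 has both, V1 has 1 of them and V3 has neither. V1, of 9552 bases, held 79.0% to 84.9% of Vcan fragments as the authors' program assigned them, V0, of 12432 bases, 9.78% to 18.8%, and V3, of 4335 bases, 1.64% to 5.42%. V0 held 18.8% and 16.4% in unconditioned WT, 11.4%, 14.0% and 12.7% in conditioned WT, 16.2%, 14.2% and 14.0% in unconditioned KO and 12.2%, 13.9% and 9.78% in conditioned KO libraries. Within each genotype no conditioned library reached an unconditioned one, although the margin in KO was small. The mean share of V0 was 15.9% without and 12.3% with conditioning, a difference of -3.60 percentage points (2-sided exact permutation test within genotype, p = 0.01, adjusted p = 0.04 over 8 shares). The share of V1 was 81.0% without and 83.7% with conditioning, 2.71 points higher (exact permutation p = 0.01, adjusted p = 0.04). V0 and V1 held on average 14.0% and 82.4% of Vcan fragments, so a fall of 1 share nearly forces a rise of the other. These are therefore not 2 separate results, and the adjusted p of each rests on both being counted among the 8 shares. The tests used 200 rearrangements. When 1 library was left out, both shares passed only without conditioned KO library 0 (adjusted p = 0.04) and neither passed in the other 10 fits (adjusted p from 0.0533 to 0.133), in which fewer rearrangements exist. In the fits that left out a WT library, the smallest possible p was too large for these 2 shares alone to pass. Their failure there was fixed in advance and does not measure how firm the result is.

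These shares rest on fragments that transcripts of 1 gene have in common. The 2 deposited copies of the unconditioned WT library gave V0 shares of 18.2% and 19.3%. From the deposited FPKM, which weigh fragments by transcript length, the V0 difference was -2.91 points (exact permutation test, adjusted p = 0.24) and the V1 difference 1.10 points (adjusted p = 0.895), so neither passed. The 3 shares of Postn and 3 of Tnc did not pass (exact permutation test, adjusted p from 0.32 to 0.795). The main Tnc transcript, of 7100 bases, held 63.5% to 77.3% of its fragments, and the 3 Postn transcripts 20.2% to 54.6% each.

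**Figure D3:**
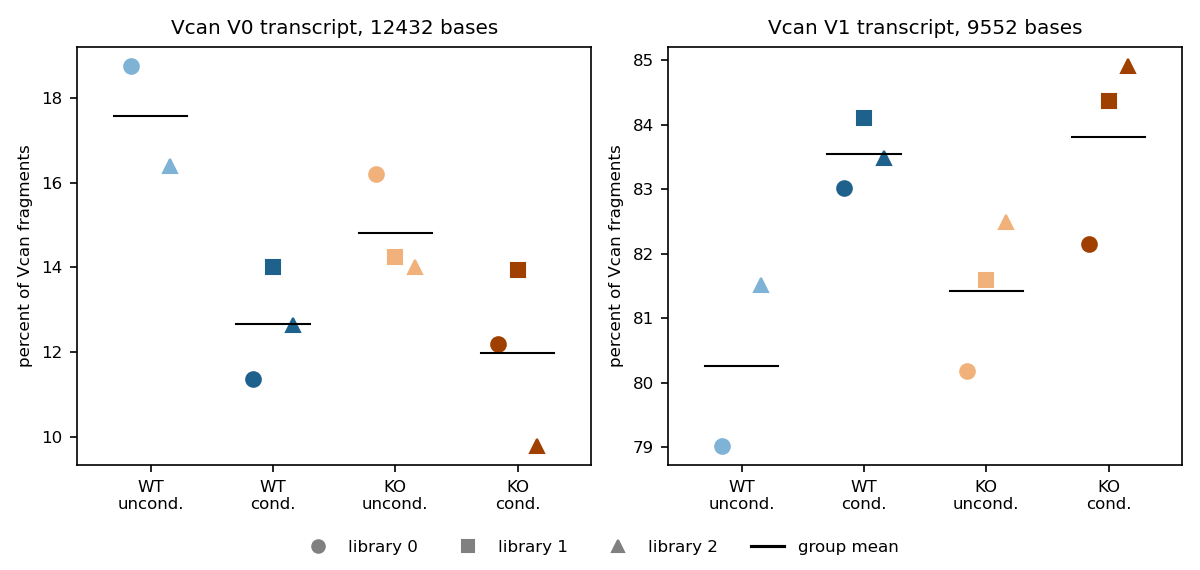
Share of Vcan fragments, in percent, assigned to the V0 transcript (12432 bases, left) and the V1 transcript (9552 bases, right) in each of the 11 libraries; neither axis starts at 0, and the line is the group mean. V0 averages 15.9% in unconditioned and 12.3% in conditioned libraries, and V1 81.0% and 83.7%.

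Between genotypes, none of the 8 genes passed in either medium, and F2rl1 itself does not check which libraries are knockout. In unconditioned medium 0 of 8 passed edgeR's quasi-likelihood test, against 0.00735% of all genes. In conditioned medium 0 of 8 passed, against 0% of all genes. In each medium 1 of 8 (Tnxb) had an unadjusted p under 0.05, against 2.16% of all genes in unconditioned and 13.9% in conditioned medium, and DESeq2 called 0. Tnxb was lower in KO in both media, by -1.61 (SE 0.48, adjusted p = 0.998) without and -1.33 (SE 0.38, adjusted p = 0.357) with conditioning. Its WT and KO libraries did not overlap in either medium, which held for 17.1% and 8.87% of all genes. Tnc was higher in KO in unconditioned medium, also without overlap, with a log2 difference of 0.61 (SE 0.28, adjusted p = 0.998 in edgeR's test). In conditioned medium the Tnc difference was -0.24 (SE 0.25, adjusted p = 0.588). For Tnn the difference was -0.30 (SE 1.18) without and -0.44 (SE 1.09) with conditioning, and for Thbs1 0.37 (SE 0.38) and -0.46 (SE 0.34). It was 0.73 (SE 0.89) and -0.11 (SE 0.78) for Postn, -0.13 (SE 0.40) and -0.41 (SE 0.36) for Thbs2, -0.41 (SE 0.23) and 0.06 (SE 0.20) for Vcan, and 0.29 (SE 0.77) and 0.0029 (SE 0.68) for Eln.

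The difference between the 2 medium effects, KO minus WT, passed for 0 of 8 genes in edgeR's quasi-likelihood test, against 0% of all genes, and for 0 in DESeq2. Tnc had the only unadjusted p under 0.05 among the 8 (log2 difference -0.85, SE 0.37, adjusted p = 0.819), which 3.03% of all genes had. An effect that passed in KO and not in WT is therefore not shown to differ between genotypes for Tnn, Tnc or Thbs1. The 2 effects of Tnxb differed by 0.29 (SE 0.60, adjusted p = 0.916), and those of Tnn by -0.14 (SE 1.61, adjusted p = 0.987). For Thbs1 the difference was -0.82 (SE 0.51), for Postn -0.84 (SE 1.17), for Thbs2 -0.28 (SE 0.54), for Vcan 0.48 (SE 0.31) and for Eln -0.29 (SE 1.02).

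Conditioned KO library 0 decides these results for 2 genes. Without it, KO was below WT in conditioned medium for Tnn (log2 difference -3.54, SE 0.82, adjusted p = 0.0125) and Thbs1 (-1.005, SE 0.21, adjusted p = 0.00776) in edgeR's quasi-likelihood test, with 33.2% of all genes past the threshold. The medium effect on Thbs1 then differed between genotypes by -1.37 (SE 0.30, adjusted p = 0.0264), with 10.5% of all genes past it. For Tnn that difference was -3.23 (SE 1.03, adjusted p = 0.0793). Without both KO libraries numbered 0, Vcan also passed, at -0.66 for KO minus WT in unconditioned medium (adjusted p = 0.0377) and 0.69 for the difference between medium effects (adjusted p = 0.0346), where 4.86% and 19.2% of all genes passed. Leaving out both KO libraries numbered 0 was decided after their values were seen.

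**Figure D4:**
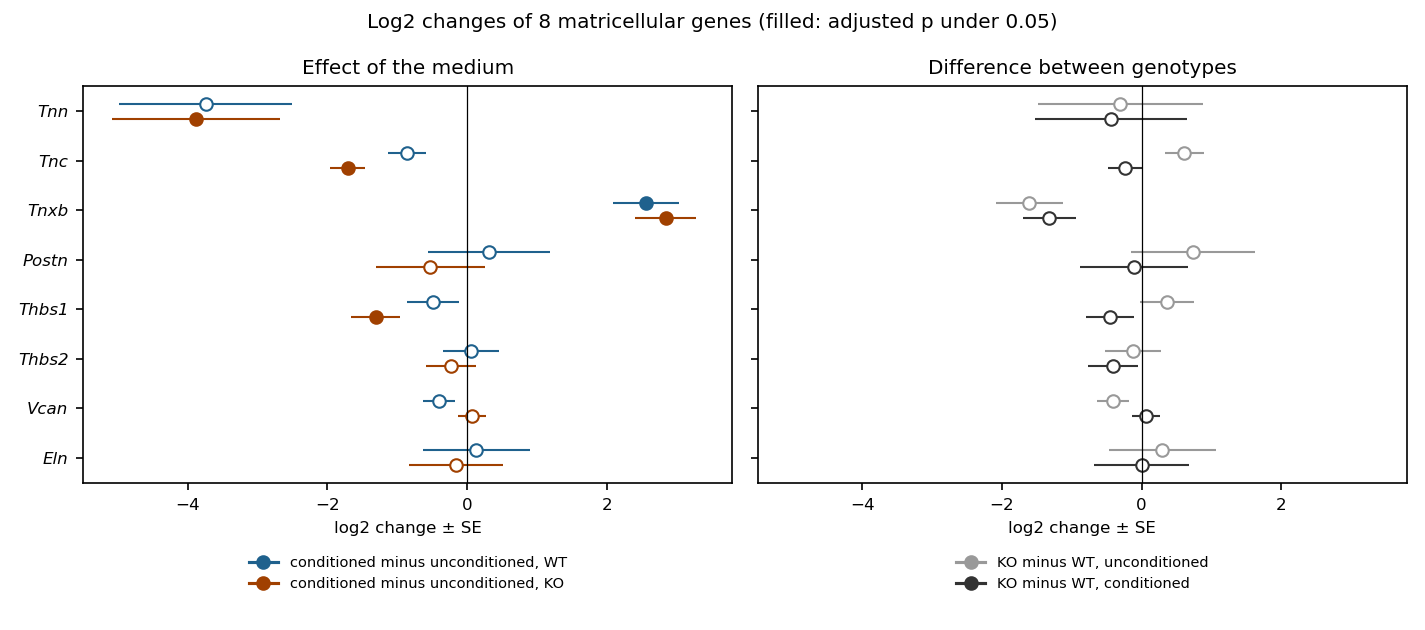
Log2 change of the 8 genes with its SE, for conditioned minus unconditioned medium in WT and KO (left) and for KO minus WT in each medium (right); filled points have an adjusted p under 0.05. Tnxb is filled in both genotypes and Tnn, Tnc and Thbs1 in KO, while no point of the genotype comparison is filled.

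In the authors' deposited table of start-site tests, which used all 12 libraries, 8 of 34 tests of these genes that were run over 4 comparisons were significant, against 8.73% of all such tests. Those tests counted unconditioned WT libraries 0 and 1, which differed by less than the sampling noise, as 2 libraries. The spread of that group may thus be understated, and q-values of comparisons that use it may be too small. Their q for Tnn was 0.0011 in both genotypes. Tnc was significant in the authors' deposited table in WT (q = 0.00850), in KO (q = 0.0011) and between genotypes in unconditioned medium (q = 0.0395). Thbs1 was significant there in KO (q = 0.0011). The first of 2 Tnxb start sites was significant in the authors' deposited table in WT (q = 0.0011) and between genotypes in conditioned medium (q = 0.0241), but not in KO (q = 0.188). Of the splicing tests of these genes, 18 of 60 were run by the authors and 0 were significant, against 1.07% of all splicing tests run.

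For each gene the 3 genes with the nearest centred log2 CPM over the 11 libraries were found among those tested, by the root mean square difference. Those of Tnn included Scn7a, a sodium channel family gene, at 1.13 and Txnip, whose protein binds thioredoxin, at 1.19, against a spread of 2.78 for Tnn itself. For Tnc they were Phf19 (0.17, against 0.76), the pair Foxm1 and 4933413G19Rik counted as 1 entry, and Gsg2; Foxm1 and Gsg2 act in mitosis. For Tnxb they were Cdk15 (0.38, against 1.62), Rab11fip4 and Gng4. For Thbs1 they were Lbh, P4ha3 and Pxdn (0.18 to 0.19), and for Thbs2 Tgfbr2, Cpz and Itpr1 (0.18 to 0.19). Postn had Fndc1 (0.24), Mfap4 (0.31) and Eln, and Eln had Artn (0.28), Fndc1 and Mfap4, so that Fndc1 and Mfap4, a protein of elastic fibres, were near both. Vcan had Ddx6, AU022252 and Ash1l (0.11 to 0.12), against its own spread of 0.23.

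Related genes were counted in 5 lists, given here beside the shares of all genes past the threshold (1.78% in WT, 18.3% in KO and 20.5% averaged) in edgeR's quasi-likelihood test. The median of all genes tested lay at 0.01 in WT, 0.02 in KO and 0.02 averaged. Of 24 other matricellular genes tested, 1 fell in WT, 5 fell and 0 rose in KO, and 6 fell and 1 rose averaged, with a median log2 change of -0.71 averaged. Angptl4, which inhibits lipoprotein lipase, fell by 2.59 in WT on the log2 scale and fell by 1.47 in KO (SE 0.25 and 0.23, adjusted p = 0.00514 and 0.00669). Nid2, a basement membrane linker, fell by 1.40 in KO (SE 0.38, adjusted p = 0.0328). Averaged over genotypes, the tenascin Tnr changed by -1.82 (SE 0.42, adjusted p = 0.0145) and Nov, a CCN family gene, by 1.32 (SE 0.40, adjusted p = 0.0424).

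Of 19 elastic fibre genes, 0 passed in WT, 6 fell in KO and 5 fell averaged, with a median of -0.65 in KO. Lox, which crosslinks collagen and elastin, fell by 2.23 in KO (SE 0.44, adjusted p = 0.0125 in edgeR's test), and Ltbp2, a microfibril protein, fell by 1.46 (SE 0.35, adjusted p = 0.0230). Of 13 hyaluronan and lectican genes tested, 1 fell in WT, and 3 fell and 1 rose in KO, with a median of -0.54 in KO. Has2, which makes hyaluronan, fell by 1.28 in WT (SE 0.18, adjusted p = 0.0139). In KO, Hmmr, a hyaluronan receptor that also acts at the spindle, fell by 2.65 (SE 0.50, adjusted p = 0.0112), Adamts4, a protease that cuts versican, fell by 1.67, and Adamts1, another such protease, rose by 0.66.

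Of 25 receptor genes, 0 passed in WT, and 5 fell and 1 rose in KO, with a median of -0.54 in KO. Sdc4, a syndecan, fell by 1.69 (SE 0.38, adjusted p = 0.0189 in edgeR's test) and Itga5, the alpha chain of the fibronectin receptor, fell by 1.48 (SE 0.29, adjusted p = 0.0114). Cd36, a receptor of thrombospondin 1, rose by 1.24 in KO (SE 0.32, adjusted p = 0.0282). Of 18 TGF-beta ligands, receptors and targets, 0 passed in WT, 2 fell and 1 rose in KO, and 3 fell and 3 rose averaged, with a median of -0.30 averaged. Averaged over genotypes, Ltbp2, which is also in the elastic fibre list, fell by 1.05 (SE 0.26, adjusted p = 0.0187), and the ligand gene Tgfb2 rose by 0.82 in KO (SE 0.17, adjusted p = 0.0153). None of the genes in the 5 lists passed between genotypes or for the difference between medium effects.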

How the data were processed

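RNA was sequenced on a HiSeq2000 from TruSeq v2 libraries, per the labels' protocols; this kit does not mark strand. Per the submitters' processing notes, the tools were CASAVA 1.8.2, TopHat2 2.0.9, and Cufflinks and Cuffdiff 2.1.1, with mm10. Per the file headers, the authors deposited estimated counts of fragments per gene and transcript (expected counts), FPKM values, transcript lengths in bases, and Cuffdiff p-values and q-values. The 9 genes and all lists were chosen with earlier results of these data known. Expected counts were rounded to whole numbers (94.3% of values were whole) and fitted in edgeR 4.0.16 (R 4.3.3; TMM, filterByExpr, robust glmQLFit) with 4 group means and 11 libraries, which left 7 residual degrees of freedom and a biological coefficient of variation of 0.238. P-values were adjusted by Benjamini-Hochberg over 13603 genes, with a threshold of 0.05. The 1714 entries without a symbol held 2.69% to 3.10% of fragments and stayed out. Log2 CPM used a prior count of 1. Unconditioned WT libraries 0 and 1 gave a chi-square of 759 (15474 degrees of freedom), while no other pair within a group was below 94766 (15124), and the mean of both was used. Shares of transcripts between 5% and 95%, in genes with at least 100 fragments in every library, were compared by exact permutation within genotype (SciPy 1.17.1); start-site shares could be tested for 0 of the genes. The alternatives were DESeq2 1.42.0, its size factors, no filter, limma 3.58.1 on log2(FPKM + 1) and log2(FPKM + 0.1), all 12 libraries, a replicate block and leaving out each library. In WT the block left conditioned library 1 without a partner, because unconditioned libraries 0 and 1 were merged. Same-numbered KO libraries deviated together from their group means (correlations 0.350, 0.225 and 0.311). Different-numbered KO libraries gave -0.348 to 0.263, so the highest of these exceeded the lowest same-numbered value. In WT the same-numbered values were -0.140 and 0.424, below the 0.470 of unconditioned library 0 with conditioned library 1. The correlations do not settle whether the numbers pair libraries, so the block was an alternative and not part of the main fit. The file numbers 0 to 2 are not tied to the sample titles. On simulated counts, the fit recovered the changed genes at 4-fold more often than at 2-fold. The 8 genes with values are named in each comparison, with at most the 2 largest rises and 2 largest falls of each related list and the 3 genes nearest to each member. Of the genes this rule selects, 1 is not reported here. Columns of other samples did not occur.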

Additional observations from a re-analysis of the deposited data

How the results depend on the processing

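Averaged over genotypes, Tnn, Tnc and Tnxb kept direction and passed in all 20 alternatives; Thbs1 kept its direction. Members passing in WT numbered 1, and 2 with DESeq2, 0 with the replicate block, 0 with the block with WT library 0 numbered 1, and 2 without both KO libraries numbered 0; without both, they numbered 1 for KO minus WT in unconditioned medium, 2 in conditioned medium and 2 for the interaction. Leaving out 1 library gave 0 to 2 in WT, 2 to 4 in KO, 3 to 4 averaged, 0 in unconditioned and 0 to 2 in conditioned medium between genotypes, and 0 to 1 for the interaction. Of transcript shares, 2 passed (V0 and V1 of Vcan, which move against each other), 0 with deposited FPKM, and 0 to 2 without 1 library. In 10 of 11 such fits 0 passed, but fewer rearrangements exist there. Without a WT library, these 2 shares alone could not have passed. No paired analysis was possible between genotypes because WT and KO libraries of 1 number come from different mice; the block changed no call but Tnxb in WT and Thbs1 averaged, and, with the added numbering chosen after seeing the data, Thbs1 in KO (-1.45, adjusted p = 0.0564).

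Estimates that changed sign had not passed. In WT, limma gave -0.093 and -0.097 for Postn, -0.0151 and -0.0153 for Thbs2 and -0.13 and -0.20 for Eln (pseudocounts 1 and 0.1), 12 libraries gave -0.056 for Thbs2, and the replicate block -0.85 for Postn, -0.34 for Thbs2 and -0.98 for Eln (-0.0026 for Eln with the added numbering). For KO minus WT in conditioned medium, Postn was 0.28 and 0.29 with limma and 0.21 without both KO libraries numbered 0. For the interaction, limma gave -0.38 for Tnxb and 0.043 for Eln, and the block 0.57 for Postn, 0.056 for Thbs2 and 0.83 for Eln. Leaving out 1 library, ranges crossing 0 were -0.83 to 0.99 for Postn, -0.37 to 0.42 for Thbs2, -0.98 to 0.56 for Eln in WT. In KO they were -0.53 to 0.012 for Thbs2, -0.053 to 0.32 for Vcan, -0.65 to 0.28 for Eln. Averaged they were -0.68 to 0.23 for Postn, -0.30 to 0.096 for Thbs2, -0.57 to 0.21 for Eln. Between genotypes unconditioned they were -0.43 to 0.24 for Thbs2, -0.14 to 0.72 for Eln. Between genotypes conditioned they were -3.54 to 0.41 for Tnn, -0.54 to 1.04 for Postn, -0.70 to 0.0079 for Thbs2, -0.48 to 1.11 for Eln. For the interaction they were -3.23 to 0.71 for Tnn, -1.51 to 0.31 for Postn, -0.65 to 0.14 for Thbs2, -0.77 to 0.82 for Eln. The share of the Postn transcript of 3130 bases differed by -4.02 to 2.13 points. The share of the Postn transcript of 3214 bases differed by -2.78 to 0.107 points. The share of the Tnc transcript of 5735 bases differed by -0.868 to 3.3 points. The share of the Tnc transcript of 7100 bases differed by -0.7 to 2.31 points. The cause was not tested.

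Genes passing in WT numbered 242, against 866 with DESeq2, 923 with 12 libraries, 155 and 0 with the 2 blocks, and 0 to 916 without 1 library. The count in KO was 2484 (319 to 6094 without 1 library) and averaged 2787 (1215 to 5652); without both KO libraries numbered 0 the counts were 1589, 6822 and 6590, with 659 and 5765 between genotypes and 2605 for the interaction. Between genotypes in conditioned medium 0 passed, against 4507 without conditioned KO library 0, and 1419 then passed for the interaction.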
